A study of Mus musculus with 12 samples.

Results

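Sphingosine-1-phosphate (S1P) receptors are the G protein-coupled receptors through which lymphocytes sense the lipid S1P, and 4 of them, S1pr1, S1pr2, S1pr3 and S1pr4, were followed here in mouse spleen B cells. Their probes were found by gene name, including the older names Edg1, Edg5, Edg3 and Edg6. They had 7 probes among the 41174 on the array, and the brightest probe of a gene stands for it. The array carries 27670 gene names, and 17134 of them had a probe that rose well above background on 3 or more of the 12 arrays. All 4 receptors were among these tested genes.

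S1P is made inside cells by sphingosine kinases, exported by transporters and destroyed by a lyase and by lipid phosphatases, so that it is abundant in blood and lymph and scarce within lymphoid tissue. Lymphocytes read that difference: S1PR1, coupled to Gi, drives their exit into blood and lymph and helps to hold B cells in the marginal zone of the spleen, the layer that faces the blood. S1PR3 is known for its high expression on marginal zone B cells, S1PR2 couples to G12 and G13 and confines B cells to follicles and germinal centres, and S1PR4 is a receptor of blood cells.

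The study used C57BL/6 mice of 2 genotypes, Ebf1 fl/fl RERTCre and Ebf1 +/fl RERTCre. RERT-Cre is a tamoxifen-inducible Cre recombinase, and Ebf1 encodes a transcription factor of the B lineage. Thus the control mice carried the same Cre and 1 floxed Ebf1 allele of their own, and mice of both genotypes received 3 mg of tamoxifen citrate on each of 4 consecutive days and were killed on day 10. Splenic B cells were profiled either resting or after lipopolysaccharide (LPS), a bacterial cell-wall product that activates B cells, which gave 4 groups of 3 arrays: resting fl/fl, resting +/fl, LPS fl/fl and LPS +/fl. The dose and duration of LPS and the ages of the mice are not given in the sources used here. Nothing says that the triplicates came from separate animals. The p-values therefore rest on sample-to-sample spread that may be technical, and the names of resting +/fl replicate 3 and LPS +/fl replicate 1 share a number.

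The labels name 2 sort gates for B cells, B220+ AA4.1- and B220+ AA4.1- CD21 low, without saying which sample had which. CD21 is the product of Cr2 and is high on marginal zone B cells, so a gate and a genotype cannot be told apart where the gate differed between groups. On 11 arrays 54.4% to 61.4% of spots were well above background, and on LPS fl/fl replicate 2 it was 83.2%. The arrays lay on 3 slides, with the LPS fl/fl arrays on slides 3, 3 and 2 and the LPS +/fl arrays on slides 2, 1 and 1. Slide and genotype are thus hard to tell apart after LPS, since only slide 2 held LPS arrays of both genotypes. All 8 B cell markers were well above background on every array. The 2 probes for Ebf1 did not move alike. The brighter was higher in resting fl/fl cells, by 0.62 on the log2 scale (SE 0.15, limma adjusted p = 0.0344), with levels of 1.68 to 1.81 against 0.75 to 1.40 in resting +/fl cells, whereas the dimmer lay at -5.01 to -4.21 against -3.16 to -2.18. The files do not say whether either probe lies in the floxed part, so neither checks the deletion, and groups are named as labelled.

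A level below is the log2 of a probe's signal over the 75th percentile of its array, so a level of 0 equals that percentile and a difference of 1 is a 2-fold change. Levels of different genes come from different probes and are not compared with each other. Adjusted p-values are from limma with Benjamini-Hochberg adjustment over the 17134 genes, with a threshold of 0.05. In bulk samples, fewer cells of a type and less RNA per cell cannot be told apart.

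**Figure D1:**
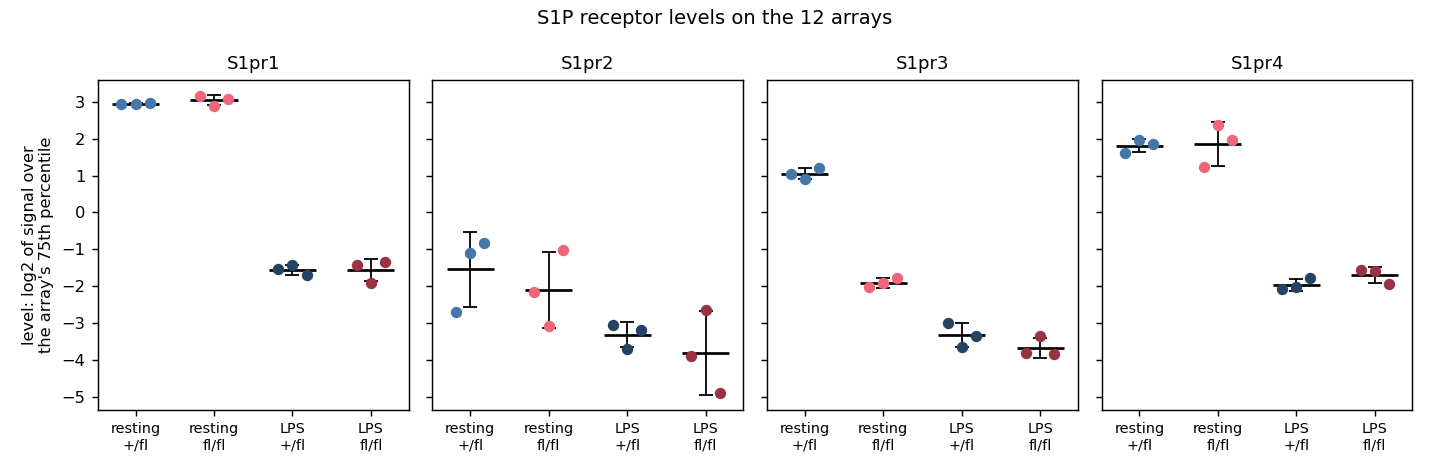
Levels of S1pr1, S1pr2, S1pr3 and S1pr4 on each of the 12 arrays (points), with group means and SD (bars, n = 3); the y axis is the log2 of signal over the array's 75th percentile. S1pr1 and S1pr4 fall from resting to LPS in both genotypes, and S1pr3 is lower in resting fl/fl (-2.03 to -1.76) than in resting +/fl cells (0.91 to 1.21).

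S1pr3 was the receptor that differed between genotypes at rest, and all 4 receptors were lower after LPS in +/fl cells. In resting cells 1 of the 4 members passed the test, S1pr3, which was lower in fl/fl cells; over all genes 8.81% were called in this comparison, 4.63% higher and 4.18% lower. Its values did not overlap between the genotypes, which held for 31.2% of all genes. The LPS response called 4 of 4 members in +/fl cells and 3 of 4 in fl/fl cells, all lower, where 57.7% of all genes were called in +/fl cells (30.4% higher, 27.4% lower) and 55.6% in fl/fl cells (29.9% higher, 25.7% lower). In +/fl cells the resting and LPS values of all 4 members did not overlap, which held for 65.7% of all genes, and in fl/fl cells those of 3 of 4, against 62.1%. Between the genotypes after LPS limma called 0 of 4 members, with 0 of 4 at an unadjusted p under 0.05, against 1.69% of all genes (0.887% higher, 0.805% lower), and values overlapped for 4 of 4 members while 33.4% of all genes did not overlap. The interaction, which asks whether the LPS response of fl/fl cells differs from that of +/fl cells, called S1pr3 only, in the positive direction, against 0.175% of all genes, 0.105% in that direction.

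S1pr1, the egress receptor, had 1 probe (named Edg1 in the files; mm7 chr3:115486015-115486074, minus strand). Its level was 2.95, 2.95 and 2.96 in resting +/fl cells and 3.17, 2.89 and 3.09 in resting fl/fl cells. After LPS it was -1.54, -1.43 and -1.69 in +/fl cells and -1.41, -1.90 and -1.35 in fl/fl cells. The resting and LPS values were far apart in both genotypes, while the genotypes overlapped in either state.

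S1pr1 fell 22.7-fold with LPS in +/fl cells (log2 difference -4.51, SE 0.15, limma adjusted p = 4.67e-08) and 24.3-fold in fl/fl cells (-4.60, SE 0.15, adjusted p = 3.84e-08). Of all genes tested, 0.123% had a smaller p than S1pr1 in +/fl cells and 0.128% in fl/fl cells. Within slides, which held 4 arrays each, the response was -4.51 and -4.49 in +/fl cells and -4.24 and -4.74 in fl/fl cells. The genotype difference was 0.094 at rest (95% interval -0.24 to 0.43, adjusted p = 0.739) and -0.0011 after LPS (-0.34 to 0.34, adjusted p = 0.997). The interaction was -0.095 (-0.57 to 0.38, adjusted p = 0.828). Thus no genotype difference in S1pr1 was detected, with intervals that reach about 0.4 on the log2 scale for the genotype effects.

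S1pr4, the receptor largely restricted to blood cells, was read from 1 probe (Edg6 in the files; mm7 chr10:81292729-81292788, minus strand). Its sequence is shown, 5′ to 3′, as the piece of transcript that the S1pr4 values report.
S1pr4 probe A_51_P307944: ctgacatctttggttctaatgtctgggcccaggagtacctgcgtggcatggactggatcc
The level was 1.62, 1.96 and 1.86 in resting +/fl cells and 1.22, 2.38 and 1.97 in resting fl/fl cells. After LPS it was -2.07, -2.03 and -1.77 in +/fl cells and -1.55, -1.60 and -1.94 in fl/fl cells. As for S1pr1, resting and LPS values did not overlap and the genotypes did.

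S1pr4 fell 13.7-fold with LPS in +/fl cells (log2 difference -3.77, SE 0.26, limma adjusted p = 1.09e-06) and 11.7-fold in fl/fl cells (-3.55, SE 0.26, adjusted p = 1.76e-06). The genotype difference was 0.042 at rest (95% interval -0.53 to 0.61, adjusted p = 0.942) and 0.26 after LPS (-0.31 to 0.83, adjusted p = 0.567), and the interaction was 0.22 (adjusted p = 0.758). Resting fl/fl cells were the most variable group for this gene, with an SD of 0.58 against 0.17 in resting +/fl cells, and the resting difference within the 3 slides ran from -0.73 to 0.75. Over the 12 arrays the levels of S1pr1 and S1pr4 had a Pearson correlation of 0.98, a description of arrays that share the step from resting to LPS.

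S1pr3 had 2 probes (Edg3 in the files; plus strand), at mm7 chr13:50454619-50454678, the brighter, and mm7 chr13:50452948-50453007, 1671 bases nearer the 5′ end of the gene. At the brighter probe the level was 1.05, 0.91 and 1.21 in resting +/fl cells and -2.03, -1.92 and -1.76 in resting fl/fl cells. After LPS it was -2.98, -3.64 and -3.34 in +/fl cells and -3.81, -3.35 and -3.84 in fl/fl cells. The order was thus resting +/fl, resting fl/fl, then the LPS groups, with no overlap between the first, the second and the rest. After LPS the genotypes overlapped only through LPS fl/fl replicate 2, the array with 83.2% of spots above background. The LPS fl/fl values of -3.81 and -3.84 lay below all LPS +/fl values.

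At rest S1pr3 was 7.78-fold lower in fl/fl than in +/fl cells (log2 difference -2.96, SE 0.19, limma adjusted p = 0.000117), and 0.0175% of all genes had a smaller p. Each of the 3 slides held 1 resting array of each genotype, and the difference within them was -2.94, -2.97 and -2.97. After LPS the genotype difference was -0.35 (95% interval -0.77 to 0.070, adjusted p = 0.304). On slide 2, the only slide with LPS arrays of both genotypes, it was -0.85. With normexp background correction the resting difference was -1.80 and did not pass (adjusted p = 0.99998). That correction was affected by spots of very high local background on 4 arrays, and with those spots repaired it was -2.38 (adjusted p = 1.19e-06).

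S1pr3 fell 20.8-fold with LPS in +/fl cells (log2 difference -4.38, SE 0.19, limma adjusted p = 8.76e-08) and 3.40-fold in fl/fl cells (-1.76, SE 0.19, adjusted p = 2.47e-05). The responses differed between genotypes by 2.61 (SE 0.27, 95% interval 2.02 to 3.20, adjusted p = 0.00735). No setting turned the interaction round, but it did not pass with quantile normalization (2.04, adjusted p = 0.0740), scaling by the array median (2.06, 0.09997, where the median gene was at -0.54), the deposited normalized values (1.96, 0.0883), the mean over both probes (3.85, 0.0716) or normexp (0.83, 0.999; repaired, 2.22 and 0.000297). The response of +/fl cells was -2.42 with normexp and passed there (adjusted p = 0.0226), and that of fl/fl cells did not pass with normexp (-1.59, adjusted p = 0.0816) or with the mean over probes (-0.40, 0.480).

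**Figure D2:**
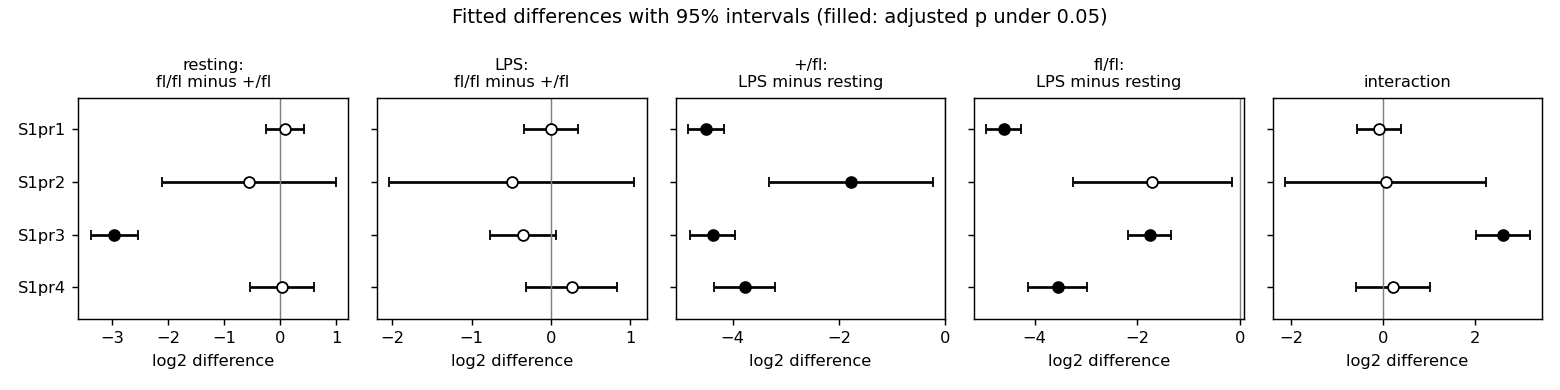
Fitted log2 differences (x axis) of the 4 receptors in the 5 comparisons, with 95% intervals from limma; filled points have an adjusted p under 0.05. S1pr3 stands at -2.96 in the resting genotype comparison and at 2.61 in the interaction, while the intervals of S1pr1, S1pr2 and S1pr4 in both of these include 0.

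The second S1pr3 probe gave the same direction at rest. It was well above background on 3 of 3 resting +/fl arrays (-2.68, -2.92 and -2.42) and on 0 of 3 resting fl/fl arrays, where a fold is a lower bound set against the faintest signal well above background on each array. S1pr3 was at least 5.79-fold lower in resting fl/fl cells by this probe. In +/fl cells it was at least 7.06-fold lower after LPS, with 0 of 3 LPS arrays above background. The probe passed the filter only through the resting +/fl arrays, where it was high, so both folds are given without a p-value. In LPS fl/fl cells only replicate 2, the array with 83.2% of spots above background, was above it, at -3.34 against -6.64 and -6.68. Hence the LPS response of fl/fl cells and the interaction have no measured value by this probe.

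**Figure D3:**
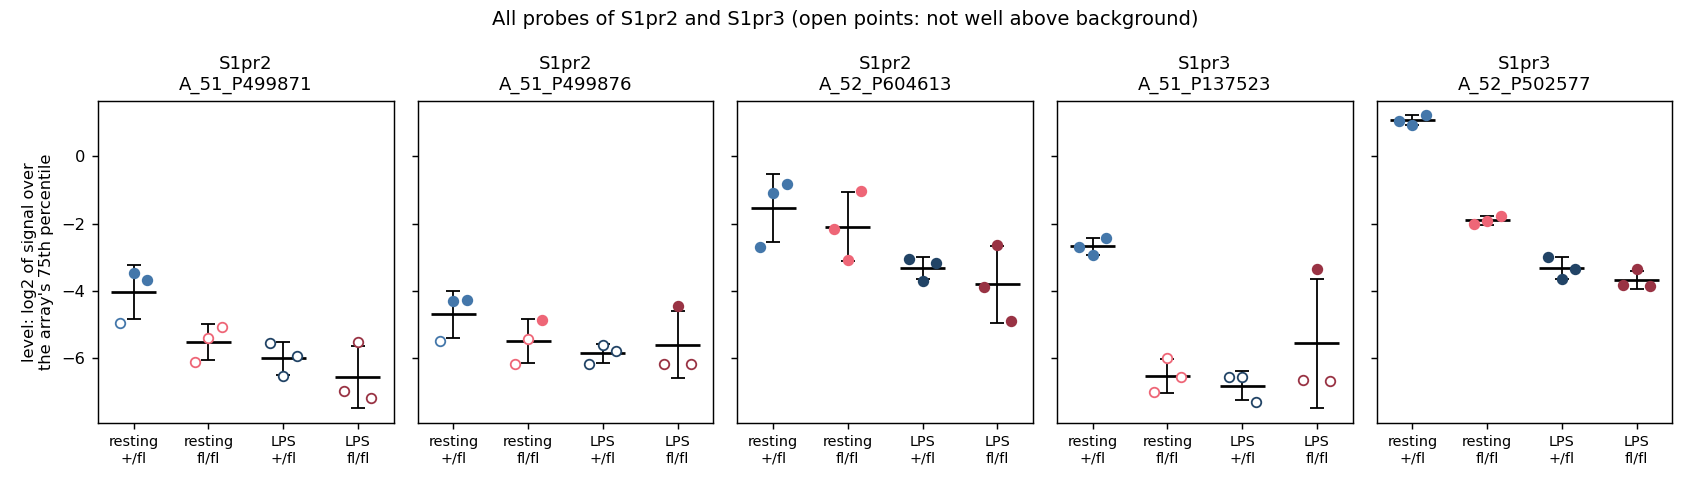
Levels (y axis, log2 of signal over the array's 75th percentile) of each of the 3 S1pr2 and 2 S1pr3 probes on the 12 arrays by group, with mean and SD (n = 3); open points were not well above background. Both S1pr3 probes are high in resting +/fl cells, and the 2 dimmer S1pr2 probes lie mostly at background.

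The promoter of S1pr3 is shown because this gene carried the genotype difference. It is the 250 bases before the annotated start in RefSeq, build GRCm38.p6, at chr13:51408368-51408617, plus strand, 5′ to 3′. RefSeq's table held 3 of the 4 members. Capitals mark matches to CACCC or its reverse complement, the core recognised by KLF factors.
S1pr3 promoter: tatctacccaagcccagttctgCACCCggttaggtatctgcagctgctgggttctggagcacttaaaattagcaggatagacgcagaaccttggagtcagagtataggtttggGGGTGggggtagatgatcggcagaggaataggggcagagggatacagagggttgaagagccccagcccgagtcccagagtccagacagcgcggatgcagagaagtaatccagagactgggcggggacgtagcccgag
The window held 2 such matches, and 52.0% of 32851 promoter windows of the same length held at least 1. The core of the EBF motif, CCCNNGGG, had 0 matches here on either strand and was found in 11.8% of windows. TGGGAA, the core bound by RBPJ downstream of Notch, also had 0 matches and was found in 21.6% of windows. The promoter windows of S1pr2 and S1pr4 each held 1 CACCC match and none of the other letters.

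Marginal zone B cells are the splenic B cells known for high S1pr3, and most of their listed markers were also lower in resting fl/fl cells. Of 12 listed marginal zone markers (S1pr3 not among them) 7 were lower and 1 was higher there, against 4.18% and 4.63% of all genes. The median log2 difference was -1.13, against 0.046 over all genes. Their summed signal, in units of the array's 75th percentile, was 129 to 156 in resting fl/fl and 271 to 340 in resting +/fl cells. After LPS it was 49.5 to 58.8 in fl/fl and 94.0 to 102 in +/fl cells. In that state 5 of 12 were lower and 0 higher, against 0.805% and 0.887% of all genes. S1pr3 values overlapped between genotypes there, only through LPS fl/fl replicate 2. With plain normexp 0 of the 12 passed in either state. None of the 12 was below background throughout: 10 to 12 were well above it on each array. Other markers differed at rest as well. Of 11 endothelial and stromal markers, 5 or 6 were above background on each resting array, with a summed signal of 2.71 to 2.93 in fl/fl and 3.37 to 3.86 in +/fl cells, and 1 of 6 tested was lower. The 13 myeloid markers summed to 13.2 to 20.03 in fl/fl and 19.8 to 134 in +/fl cells, with 1 of 13 lower, and all were above background. The 6 platelet markers went the other way, with sums of 1.77 to 7.07 in fl/fl and 0.77 to 1.68 in +/fl cells and 1 of 6 higher. The part of any of these markers in the S1pr3 difference was not tested.

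Cr2, the gene of the CD21 that 1 of the gates used, was lower in fl/fl cells both at rest (5.51-fold, log2 difference -2.46, SE 0.12, limma adjusted p = 2.63e-05) and after LPS (3.95-fold, -1.98, adjusted p = 0.000411). Its level was 3.95 to 4.18 in resting +/fl, 1.54 to 1.72 in resting fl/fl, 1.66 to 2.03 in LPS +/fl and -0.26 to -0.01 in LPS fl/fl cells. Cr2 thus kept apart the genotypes after LPS, where S1pr3 values overlapped only through LPS fl/fl replicate 2. The Cr2 interaction was 0.48 (adjusted p = 0.179). Of 7 follicular B cell markers, 3 were higher and 0 lower in resting fl/fl cells, against 4.63% and 4.18% of all genes. With plain normexp or scaling by the array median 0 of the 7 passed. With repaired normexp, quantile normalization or the deposited values 3 were higher. Their summed signal was 356 to 374 in fl/fl and 303 to 381 in +/fl cells.

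**Figure D4:**
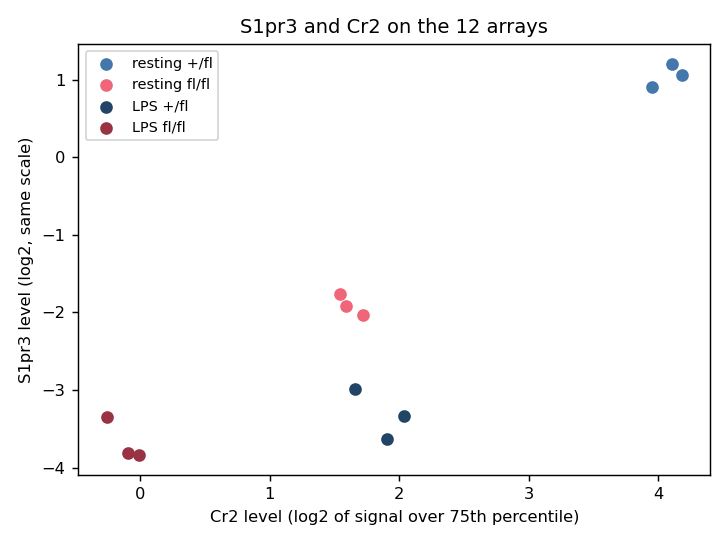
S1pr3 level (y axis) against Cr2 level (x axis), both log2 of signal over the array's 75th percentile, 1 point for each of the 12 arrays. Resting fl/fl (Cr2 1.54 to 1.72) and LPS +/fl arrays (1.66 to 2.03) have like Cr2 levels, and S1pr3 is -2.03 to -1.76 in the former and -3.64 to -2.98 in the latter.

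S1pr2, the receptor that confines B cells to follicles, had 3 probes (Edg5 in the files; minus strand). The brightest, at mm7 chr9:20842843-20842902, lies nearest the 3′ end of the gene. The other probes lie 1592 and 1733 bases nearer the 5′ end, at mm7 chr9:20844435-20844494 and chr9:20844576-20844635. Their sequences are shown because these pieces of the transcript were mostly at background.
S1pr2 probe A_51_P499871: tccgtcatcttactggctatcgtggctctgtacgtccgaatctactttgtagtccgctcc
S1pr2 probe A_51_P499876: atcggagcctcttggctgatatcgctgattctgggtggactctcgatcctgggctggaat
At the brightest probe the S1pr2 level was -2.70, -1.10 and -0.82 in resting +/fl cells and -2.16, -3.09 and -1.03 in resting fl/fl cells. After LPS it was -3.06, -3.69 and -3.18 in +/fl cells and -3.88, -2.64 and -4.90 in fl/fl cells. Replicates were spread widely: resting and LPS values did not overlap in +/fl cells and did in fl/fl cells.

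S1pr2 was 3.42-fold lower after LPS in +/fl cells and just passed (log2 difference -1.77, SE 0.69, limma adjusted p = 0.0498). In fl/fl cells it was 3.29-fold lower and just failed to pass (-1.72, SE 0.69, adjusted p = 0.0583). The difference between these responses was 0.057 (95% interval -2.13 to 2.25, adjusted p = 0.981), an interval too wide to compare the genotypes. The response within slides was -2.34 and -0.37 in +/fl cells and -1.82 and -2.23 in fl/fl cells. The genotype difference was -0.55 at rest (-2.10 to 0.996, adjusted p = 0.655) and -0.49 after LPS (-2.04 to 1.05, adjusted p = 0.695). The call in +/fl cells was lost without any 1 of 7 arrays, at adjusted p-values of 0.0644 to 0.157: resting fl/fl 1, resting +/fl 2 or 3, LPS fl/fl 1, or LPS +/fl 1, 2 or 3. It was also lost with the replicate number as a block (adjusted p = 0.0776). The fl/fl response passed without resting fl/fl 2, resting +/fl 1 or LPS fl/fl 2 (adjusted p from 0.0179 to 0.0411).

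The S1pr2 probe A_51_P499871 was well above background on 2 of 3 resting +/fl arrays and on none of the other 9, too few for the filter. By it S1pr2 was about 2.13-fold lower in resting fl/fl cells and about 2.59-fold lower after LPS in +/fl cells. In both folds the dimmer group was counted at no less than the faintest signal well above background on each array. Both are untested and are not strict lower bounds, since resting +/fl replicate 1 was itself not above background. The probe A_51_P499876 was above background on 2 of 3 resting +/fl, 1 of 3 resting fl/fl, 1 of 3 LPS fl/fl and 0 of 3 LPS +/fl arrays. By it S1pr2 fell about 1.75-fold with LPS in +/fl cells, for the same reason not a strict lower bound. The fitted difference, -1.17 with values at background included, did not pass (limma adjusted p over all probes = 0.0801).

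S1pr5, the remaining S1P receptor, is known from natural killer (NK) cells. Its level was -1.12, -1.79 and -0.91 in resting +/fl cells and -1.20, -1.49 and -1.31 in resting fl/fl cells. After LPS it was well above background on 3 of 3 fl/fl arrays, at -3.50, -3.13 and -4.52, and on 0 of 3 +/fl arrays. By these levels S1pr5 was at least 3.24-fold higher in LPS fl/fl than in LPS +/fl cells (limma adjusted p = 0.0346). This call passed under 0 of 5 other scalings or background corrections. They gave log2 differences of -0.40 to 1.33, below the bound of 1.70. By the same levels S1pr5 was at least 17.6-fold lower after LPS in +/fl cells (adjusted p = 2.54e-06). The other scalings or background corrections gave -4.08 to -1.47, smaller in size than the bound of 4.14, and 4 of 5 passed. Both bounds thus hold only for the levels used here. In fl/fl cells S1pr5 fell 5.22-fold with LPS (log2 difference -2.38, SE 0.33, adjusted p = 0.000164), and the interaction did not pass (adjusted p = 0.0957).

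Markers of several cell types changed with LPS, some lower and some higher. Over all genes 27.4% fell and 30.4% rose in +/fl cells, and 25.7% fell and 29.9% rose in fl/fl cells. The summed signal of 8 NK cell markers, in units of the array's 75th percentile, was 23.3 to 54.2 in resting +/fl and 24.6 to 31.3 in resting fl/fl cells. It was 2.60 to 3.42 in LPS +/fl and 4.99 to 9.11 in LPS fl/fl cells, and all 8 were above background on every array. Between genotypes after LPS 0 of 8 passed by limma, with 8 of 8 at an unadjusted p under 0.05, while 8 fell with LPS in +/fl and 7 in fl/fl cells. The 10 T cell markers summed to 17.97 to 40.9 on resting arrays and 8.85 to 15.8 on LPS arrays, with 5 of 10 lower in +/fl cells and 2 lower and 1 higher in fl/fl cells. The 8 B cell markers summed to 468 to 666 at rest and 238 to 301 after LPS, with 5 of 8 lower in +/fl cells and 4 lower and 1 higher in fl/fl cells. Between genotypes 2 of 8 B cell markers were lower in fl/fl cells at rest and 1 after LPS, against 4.18% and 0.805% of all genes. The resting count was 3 with repaired normexp, 1 with quantile normalization or deposited values, and 0 with plain normexp or median scaling. The 6 platelet markers summed to 0.77 to 7.07 at rest and 0.12 to 0.46 after LPS, with 5 lower in +/fl and 4 in fl/fl cells. Of 13 myeloid markers 8 fell in +/fl cells, and 5 fell and 3 rose in fl/fl cells, with sums of 11.6 to 89.4 after LPS. Of 6 tested endothelial and stromal markers 3 fell in +/fl cells, and 2 fell and 2 rose in fl/fl cells, with sums of 1.13 to 2.56 after LPS. Of 5 plasma cell markers 2 rose and 1 fell in each genotype. Of 7 erythroid markers 5 fell in +/fl and 3 in fl/fl cells, and 0 rose. The part of these cells in the receptor values was not tested.

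Around the receptors, 8 lists held 80 genes that make, move, destroy or respond to S1P or relate to its receptors, of which 76 were on the array and 67 were tested. In resting cells 4 of the 67 were higher and 3 lower in fl/fl cells, and after LPS 0 were higher and 2 lower. These counts are read against 4.63% higher and 4.18% lower over all genes at rest, and 0.887% and 0.805% after LPS. With LPS 13 rose and 37 fell in +/fl cells, with a median log2 difference of -0.65 against -0.032 over all genes, of which 30.4% rose and 27.4% fell. In fl/fl cells 8 rose and 38 fell, with a median of -0.76 against 0.063 over all genes, of which 29.9% rose and 25.7% fell. The interaction called 0 of 67 by limma, with 20 at an unadjusted p under 0.05. Under the 5 other scalings or background corrections, from 21 to 40 of the 67 fell with LPS by all but plain normexp, where 13 fell in each genotype, and fewer rose than fell throughout.

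**Figure D5:**
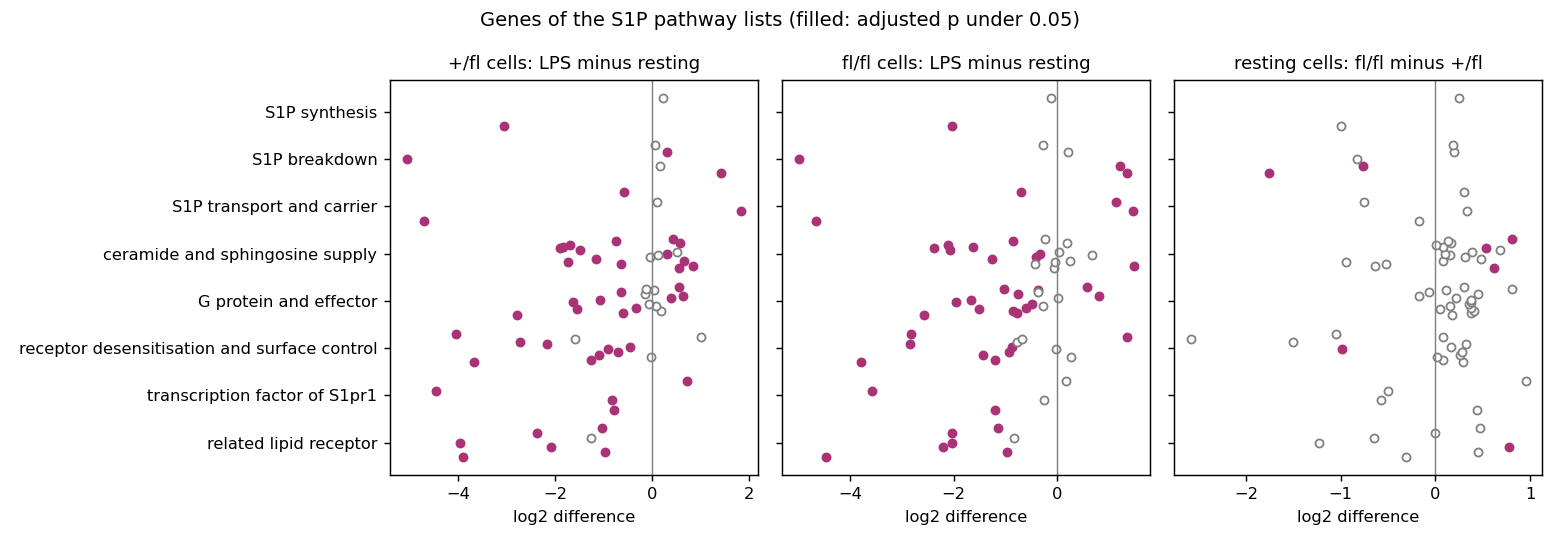
Log2 differences (x axis) of the 67 tested genes of the 8 S1P pathway lists, 1 point a gene and 1 row a list, for the LPS response of +/fl and fl/fl cells and for resting fl/fl against +/fl cells; filled points have an adjusted p under 0.05. In the LPS panels 37 and 38 genes are called lower, and in the resting panel 3.

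Among genes of S1P supply, Sphk1, a sphingosine kinase, fell 8.30-fold with LPS in +/fl cells (log2 difference -3.05, SE 0.77, limma adjusted p = 0.00640) and 4.06-fold in fl/fl cells (adjusted p = 0.0467). Only 2 of 3 arrays of each LPS group were well above background for Sphk1, so these folds are uncertain, and the other scalings or background corrections gave -2.82 to -1.03 in +/fl cells, passing under 4 of 5. Its partner kinase Sphk2 had differences of 0.23 and -0.11 that did not pass. The breakdown genes went different ways. Plpp3, a lipid phosphatase that removes S1P outside cells, fell 33.4-fold in +/fl and 31.9-fold in fl/fl cells (adjusted p = 1.64e-07 and 1.86e-07). Plpp2 of the same family rose 2.33-fold in fl/fl cells (adjusted p = 0.000135), was at 0.17 in +/fl cells (adjusted p = 0.419), and was 1.70-fold lower in resting fl/fl cells (adjusted p = 0.0250). Its rise turned to -0.48 with normexp, and its resting difference passed under 0 of the 5 other scalings or background corrections. Sgpl1, the S1P lyase, rose 1.23-fold with LPS in +/fl cells (adjusted p = 0.0185) and was at 0.21 in fl/fl cells (adjusted p = 0.0844); its rise passed under 1 of the 5.

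Of 4 tested transport genes, Abcc1, an ABC exporter able to move S1P, rose 3.59-fold in +/fl and 2.79-fold in fl/fl cells, while Abca1, a lipid exporter, fell 26.1-fold and 25.4-fold (limma adjusted p of 3.76e-06 or less for all 4). Spns1, a lysosomal transporter of the family of the S1P exporter Spns2, fell 1.495-fold and 1.63-fold, the first passing under 3 of the 5 other scalings. Among 17 tested genes of ceramide and sphingosine supply, 6 rose and 8 fell in +/fl cells, and 1 rose and 8 fell in fl/fl cells. Of all genes, 30.4% rose and 27.4% fell in +/fl cells, and 29.9% rose and 25.7% fell in fl/fl cells. The sphingomyelinases Smpd1, Smpd2 and Smpd3, which release ceramide from sphingomyelin, fell 3.75-fold, 3.59-fold and 3.23-fold in +/fl cells and 5.19-fold, 3.09-fold and 4.33-fold in fl/fl cells. Smpd1 was 1.45-fold higher in resting fl/fl cells (adjusted p = 0.0277), which passed under 3 of the 5.

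Downstream of the receptors, 7 of 16 tested G protein and effector genes fell and 3 rose in +/fl cells, and 11 fell and 2 rose in fl/fl cells. Over all genes 57.7% and 55.6% were called in these comparisons, so the count of 10 of 16 called in +/fl cells is near that share. Arhgef1, the RhoA activator that acts below S1PR2, fell 6.93-fold in +/fl and 5.95-fold in fl/fl cells (limma adjusted p = 2.10e-07 and 3.82e-07). Gnai2, the main lymphocyte Gi subunit, fell 2.10-fold and 3.17-fold, and Gnai1 fell 3.09-fold and 3.86-fold. The Gnai2 fall in +/fl cells passed under 3 of the 5 other scalings or background corrections. Of 12 genes of receptor desensitisation and surface control, 9 fell and 0 rose in +/fl cells and 7 fell and 1 rose in fl/fl cells. The shares of all genes that fell were 27.4% and 25.7%, and of those that rose 30.4% and 29.9%. Arrb1, a beta-arrestin, fell 12.8-fold and 13.8-fold, Grk6, a receptor kinase, fell 4.47-fold and 7.21-fold, and Dnm2, the dynamin of endocytosis, fell 2.14-fold and 2.69-fold (adjusted p of 9.60e-06 or less for all 6). The Dnm2 fall in +/fl cells passed under 3 of the 5 other scalings.

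Of 4 listed transcription factors that act on S1pr1, 1 rose and 3 fell with LPS in +/fl cells, and 0 rose and 2 fell in fl/fl cells. The shares over all genes were 30.4% and 27.4% in +/fl cells, and 29.9% and 25.7% in fl/fl cells. Stat3 rose 1.65-fold in +/fl cells (limma adjusted p = 0.0439) and was at 0.18 in fl/fl cells (adjusted p = 0.599); it is named as the single member that rose. Klf2 fell 1.77-fold with LPS in +/fl cells (log2 difference -0.83, SE 0.18, limma adjusted p = 0.00308) and was at -0.25 in fl/fl cells (adjusted p = 0.271). Foxo1 fell 1.73-fold in +/fl and 2.28-fold in fl/fl cells (adjusted p = 0.000963 and 6.71e-05). The falls of Klf2 and Foxo1 in +/fl cells each passed under 3 of the 5 other scalings or background corrections. Klf4, another Krüppel-like factor, fell 21.9-fold and 11.9-fold, with an SE of 0.76 (adjusted p = 0.000573 and 0.00247). Between genotypes none of Klf2, Foxo1, Klf4 and Stat3 passed at rest or after LPS, by limma; at an unadjusted p under 0.05 at rest were Klf2 (0.0108), Foxo1 (0.0127) and Stat3 (0.00585).

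Among related lipid receptors 6 of 7 tested genes fell and 0 rose in each genotype. Over all genes 27.4% fell and 30.4% rose in +/fl cells, and 25.7% fell and 29.9% rose in fl/fl cells. Gpr183 (EBI2), the oxysterol receptor that guides B cells to the outer follicle, fell 4.24-fold in +/fl and 4.62-fold in fl/fl cells, and was 1.71-fold higher in resting fl/fl cells (limma adjusted p = 0.0170), which passed under 3 of the 5 other scalings. Cnr2, the cannabinoid receptor known to help hold B cells in the marginal zone, fell 15.0-fold and 22.1-fold. It was 1.83-fold lower in LPS fl/fl than in LPS +/fl cells (adjusted p = 0.0353), which passed under 1 of the 5 other scalings, and its resting difference was -0.31 (adjusted p = 0.232). Lpar6, a receptor for lysophosphatidic acid, fell 5.15-fold and 4.07-fold.

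Likeness of pattern was measured as the Pearson correlation of levels over the 12 arrays, which all share the step from resting to LPS, and is given as a description. The genes were picked by this likeness, so a genotype pattern shared with the member is no separate result. For S1pr1 the genes most like it, at 0.997 to 0.998, included H2-Oa, part of the class II peptide-loading modulator H2-O, Wbp1, Trpv2 and Acss1. The log2 differences of these 4 between genotypes at rest ran from -0.06 to 0.09. For S1pr4 they were Rin3, Abca3, Cd2, Rassf5 and Sirt2, at 0.993 to 0.994.

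For S1pr3 they were Mrgpre, an orphan receptor (0.988), C5ar2, a receptor for complement C5a (0.983), Slc66a1, a lysosomal amino acid transporter (0.982), Cep89 (0.979) and a transcript without a gene name (0.983). Each of these was lower in resting fl/fl cells in its fitted level, by 0.63 to 2.47 on the log2 scale. Their choice by likeness to S1pr3 on the same arrays largely fixed that direction. For S1pr2 they were Rassf6 (0.960), Poli, Btnl1, Bcam and Apln (0.905), a looser likeness than for the other members. S1pr2 and S1pr3 correlated with the other members at 0.72 to 0.81.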

How the data were processed

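The 12 Agilent 1-colour mouse arrays (design 014868, 60-base probes placed on mm7) were read from scanner output. The deposited values are intensity: background-subtracted Cy3 signal, per the file headers. The software was Agilent Feature Extraction, version 9.5.3.1 in those headers and 9.1 by the submitters' processing notes. The deposited series values are intensity on a linear scale. All columns hold the same set of values (median 30.8), as quantile normalization gives, with a tool that no source used here names, and they served as an alternative.

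Flagged probes (87) were left out, replicate spots averaged, and log2 signal taken minus the array's 75th percentile. Probes that rose well above background on 3 or more of 12 arrays were kept (25678), and the brightest probe read per gene. Group means over 12 arrays were fitted with limma (version 3.58.1 under R 4.3.3), with 1.79 prior degrees of freedom. Of these steps only the limma fit was tested on simulated data. The precision is limited by 3 arrays per group.

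Named genes were all member probes, S1pr5, up to 3 genes per pathway list with the smallest adjusted p, and the 5 genes most correlated with each member (1 is not reported here); marker genes, Sphk2, Stat3 and Ebf1 were named beside them. Members, lists and tests were chosen with earlier results of these data known. Alternatives were normexp background correction (offset 50), quantile and median scaling, the deposited values, other filters, slide or replicate number as a block, the mean over probes, a fit on only 6 arrays, trended robust eBayes, an exact permutation test, and arrays left out. The repaired normexp and 2 sets of arrays left out were chosen after seeing the data.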

Additional observations from a re-analysis of the deposited data

Results flagged for a closer look

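The LPS response of S1pr3 differed between the genotypes by the test of the difference itself: the fall was smaller in fl/fl than in +/fl cells by 2.61 on the log2 scale (SE 0.27, limma adjusted p = 0.00735). Levels of S1pr3 were already lower in resting fl/fl cells (mean -1.90 against 1.06) and were close after LPS (-3.67 against -3.32), so the interaction holds the resting difference again. It did not pass under 7 of the 27 other settings, from quantile normalization to the mean over both probes.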

How the results depend on the processing

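The LPS responses of S1pr1 and S1pr4 in both genotypes and of S1pr3 in +/fl cells kept their direction and passed under all 28 alternative fits, and the resting S1pr3 difference under 27 of 28. The exceptions all concern S1pr2, S1pr3 and differences near 0; the cause was not tested. Exact permutation of the 3 against 3 arrays cannot go below p = 0.1, so it leaves -4.51, -4.60, -1.77, -2.96, -4.38, -1.76, -3.77 and -3.55 untested. Scaling by the array median put the median gene at 0.24 in the LPS response of +/fl cells, -0.22 in that of fl/fl cells, -0.49 between genotypes after LPS and -0.54 in the interaction. Over all genes, calls at rest were 1510 and fell to 281 with median scaling, 421 without a filter, 86 without resting +/fl replicates 1 and 3, and 0 with normexp. They were 725 with the replicate block, 276 without the arrays that share a number, 134 on only the 6 arrays, 504 to 1664 with single arrays left out (504 without resting fl/fl 1, 597 without resting +/fl 1 and 747 without resting +/fl 3), and rose to 2102 (above background on all arrays) and 2227 (trend and robust). Those between genotypes after LPS were 290, fell to 5 with slide as a fixed block, and ranged from 0 (normexp) to 642 (trend and robust). On slide 2, with 1 LPS array each, the genotype difference was 0.19 for S1pr1, -1.84 for S1pr2, -0.85 for S1pr3 and 0.13 for S1pr4. The LPS responses called 9890 and 9524, against 1484 and 2390 with normexp and 5990 in fl/fl cells with median scaling, and the interaction 30, from 0 (normexp) to 424 (trend and robust).

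Normexp gave -1.80 for the resting S1pr3 difference, -1.59 for its LPS response in fl/fl cells, 0.83 for its interaction, -1.03 for the S1pr2 response of +/fl cells, -0.48 and -0.39 for the S1pr2 and S1pr4 interactions and -0.28 for the S1pr4 genotype difference after LPS. The S1pr3 interaction was 2.04 with quantile normalization, 2.06 with median scaling, 1.96 with deposited values, 3.85 with the mean over probes, 2.46 without resting +/fl replicates 1 and 3, and 2.24 with slides as a block and LPS fl/fl replicate 2 left out, none passing. The mean over probes also gave -0.40 for the S1pr3 response of fl/fl cells and 0.45 for its LPS genotype difference.

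The S1pr2 response of +/fl cells did not pass at -1.54 (quantile), -1.58 (deposited values), -1.77 (no filter), -1.79 (slide as a random block), -1.54 (without the 2 +/fl arrays that share a number) or -2.21 (without resting +/fl replicates 1 and 3), and ran from -2.35 to -1.42 with single arrays left out. That of fl/fl cells passed at -1.89 (quantile), -2.00 (median), -1.96 (deposited values), -1.72 (above background on all arrays; trend and robust), -2.06 (slide as a fixed block), -1.15 (repaired normexp) and -2.36 (slide block without LPS fl/fl replicate 2), and ran from -2.30 to -1.17 with single arrays left out. Its interaction turned to -0.34 (quantile), -0.50 (median), -0.38 (deposited values), -0.63 (slide block), -0.18 (without the arrays that share a number) and -0.89 (slide block without LPS fl/fl replicate 2), and ran from -0.53 to 0.64 with single arrays left out.

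Untested signs of other differences near 0 turned too. For S1pr1 after LPS it was 0.066 (slide block), 0.0047 (without the arrays that share a number) and 0.20 (slide block without LPS fl/fl replicate 2), or -0.10 to 0.17 with single arrays left out. Its interaction was 0.11 in the last of those blocks, or -0.20 to 0.080. The S1pr2 difference after LPS was -1.08 to 0.053 with single arrays left out. For S1pr4 it was -0.10 at rest without resting +/fl replicates 1 and 3, or -0.22 to 0.36. The median gave -0.26 after LPS and -0.34 for the interaction, which was -0.097 to 0.48 with single arrays left out.

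Replicate numbers showed no clear pairing of the samples. Deviations from group means correlated at -0.14 to 0.13 between arrays of the same number and at -0.11 to 0.13 between those of different numbers. Such weak correlations cannot exclude pairing with 3 arrays per group. Resting +/fl replicate 3 and LPS +/fl replicate 1, whose names share a number, had the highest correlation, 0.13. With the replicate number as a block the S1pr2 response of +/fl cells, -1.77, no longer passed (adjusted p = 0.0776), and no other call of the 20 changed. Signal limits the low end: the dimmer S1pr2 probes and the second S1pr3 probe were mostly not well above background.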
